A study of Macaca mulatta with 30 samples.

Results

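Cortical area 32, a field of the medial prefrontal cortex, was compared between the animals of cohort 7b and those of cohort 7a, both male rhesus macaques with a long history of voluntary ethanol drinking. All 5 libraries of cohort 7b and all 8 of cohort 7a were taken, 13 of the 30 libraries of the series, each from 1 animal. Cohort 7b had a mean age of 5.69 years when ethanol was introduced and 7.18 years at the end of open access, and cohort 7a 4.18 and 5.70 years. The labels give these ages as cohort means, not per animal. Animals of both cohorts had taken part in no earlier experiment, were first trained on 4% (w/v) ethanol and could then drink for 22 h a day over more than 12 months, with meals and water at hand. Both cohorts drank ethanol and differ in mean age, and age cannot be told apart from whatever else the animals of a cohort shared. RNA depleted of ribosomal RNA was sequenced from the whole dissected area. By intake, cohort 7b holds 3 low drinkers (LD), 1 binge drinker (BD) and 1 heavy drinker (HD). Cohort 7a holds 3 LD, 1 BD, 2 HD and 2 very heavy drinkers (VHD). Drinking category, with HD and VHD pooled, was therefore a term of the model. Replicates 1 to 5 of cohort 7b are HD, LD, BD, LD and LD, in that order.

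Area 32 lies on the medial wall of the frontal lobe and takes part in emotional and motivational control. The prefrontal cortex matures late in primates: axons go on gaining myelin, cortical circuits are refined, and the genes of axon growth decline from their early levels while the animal passes from adolescence into adult life. Astrocytes, which clear glutamate from synapses and feed neurons with metabolites, and oligodendrocytes, which make myelin, both take part in this late phase.

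The libraries hold 5514500 to 13068000 reads in measured genes, with means of 9592200 ± 2469700 in cohort 7b (SD, n = 5) and 8538100 ± 2417500 in cohort 7a (SD, n = 8) and an exact two-sided permutation p of 0.449 over 1287 splits. The first principal component, with 19.8% of the variance, set the libraries numbered 1 to 8 in the sample titles apart from all others: the 5 such libraries lay at −27.8 to −5.38 and the other 8 at 1.49 to 19.3. They comprise replicates 1 and 2 of cohort 7b and replicates 1 to 3 of cohort 7a, and the cohort means on this component were −1.85 in 7b and 1.15 in 7a (exact two-sided permutation p = 0.742). What these numbers stand for is not given in the labels, so differences are also given within the libraries numbered 1 to 8 and within the others. These are plain differences of means without a category term. Within numbers 1 to 8, cohort 7b holds HD and LD animals and cohort 7a BD, HD and VHD animals. Within the others, cohort 7b holds BD and LD animals and cohort 7a LD, HD and VHD animals. The part of drinking category in these differences was not tested. As markers of cortical tissue, 11 of 12 excitatory neuron genes in the table, 15 of 15 interneuron genes and 15 of 15 astrocyte genes reached the minimum level for testing. HBB, ALAS2 and 4 others of the 8 blood cell genes in the table stayed under it. In this bulk tissue, fewer cells of a type and less RNA per cell cannot be told apart.

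No gene passed the test between the cohorts. Genes were tested where 5 or more of the 13 libraries reached 10 normalized reads, and of these 12733 genes limma called 0 (0%) at a Benjamini-Hochberg adjusted p under 0.05, and the smallest adjusted p was 0.690. At an unadjusted p under 0.05 limma had 711 genes (5.58%), 361 higher in cohort 7b (2.84%) and 350 lower (2.75%). EdgeR's quasi-likelihood test on the recovered reads called 0, with 679 unadjusted, and DESeq2 called 0, with 689 unadjusted. The median difference over all genes was 0.0082 on the log2(value + 1) scale, on which every difference is given as cohort 7b minus cohort 7a ± SE. This scale understates the change of genes with few reads. The median SE was 0.12, and 28 genes differed by 1 or more in either direction. The unadjusted count was 1086 without replicate 1 of cohort 7a and 1083 without replicate 3 of cohort 7b, each the only BD animal of its cohort. Leaving out either takes both out of the cohort difference, since the other is then fitted by its own category term. The fits without the libraries numbered 1 to 8 are limited in a like way. There BD is left only in cohort 7b, and HD and VHD only in cohort 7a. The fitted difference then rests on LD animals, replicates 4 and 5 of cohort 7b against replicates 4, 5 and 7 of cohort 7a. The genes and groups are therefore described by their values, and none of them passed the adjusted test.

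The 10 genes with the smallest p that were higher in cohort 7b were UCHL1, TAGLN3, HSF2BP, TUBA1A, CLSTN2, PLAC9, CD36, PPEF1, RNF25 and CD24, in the order of their p. UCHL1 (chromosome 4, 40976288 to 40987521), which encodes a ubiquitin hydrolase abundant in neurons, had 8396, 8171, 7902, 7319.5 and 8116 normalized reads in replicates 1 to 5 of cohort 7b, against a lowest, median and highest value of 6161, 6715 and 7636 in the 8 animals of cohort 7a. Replicates 1, 2, 3 and 5 of cohort 7b lay above every animal of cohort 7a, and replicate 4 lay below the highest of them. The difference was 0.26 ± 0.06, or 1.20-fold (limma, unadjusted p = 0.000558, adjusted p = 0.690), and 9 of 9 measured exons had its sign. TAGLN3 (chromosome 3, 165005036 to 165019845), the gene of a neuronal actin-binding protein of the calponin family, stood at 2319, 2218, 2253, 2229.5 and 2550.4 in cohort 7b and at 1739, 1880.1 and 2187 in cohort 7a. The 2 cohorts did not overlap for this gene, with a difference of 0.29 ± 0.07, and of all genes tested 22 lay wholly above in cohort 7b (0.173%) and 9 wholly below (0.0707%). TUBA1A (chromosome 12, 47376611 to 47381179), the alpha-tubulin isotype of growing neurons, stood at 2932, 3516, 3411, 3492 and 3455 in cohort 7b against 2269, 2631 and 3242. Here 4 of the 5 animals of cohort 7b lay close together above all of cohort 7a, and replicate 1, the HD animal, lay apart below them, with a difference of 0.35 ± 0.09. Reads of TUBA1A can be shared with its near-identical paralogs, and how such reads were counted is not given in the sources used here.

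**Figure D1:**
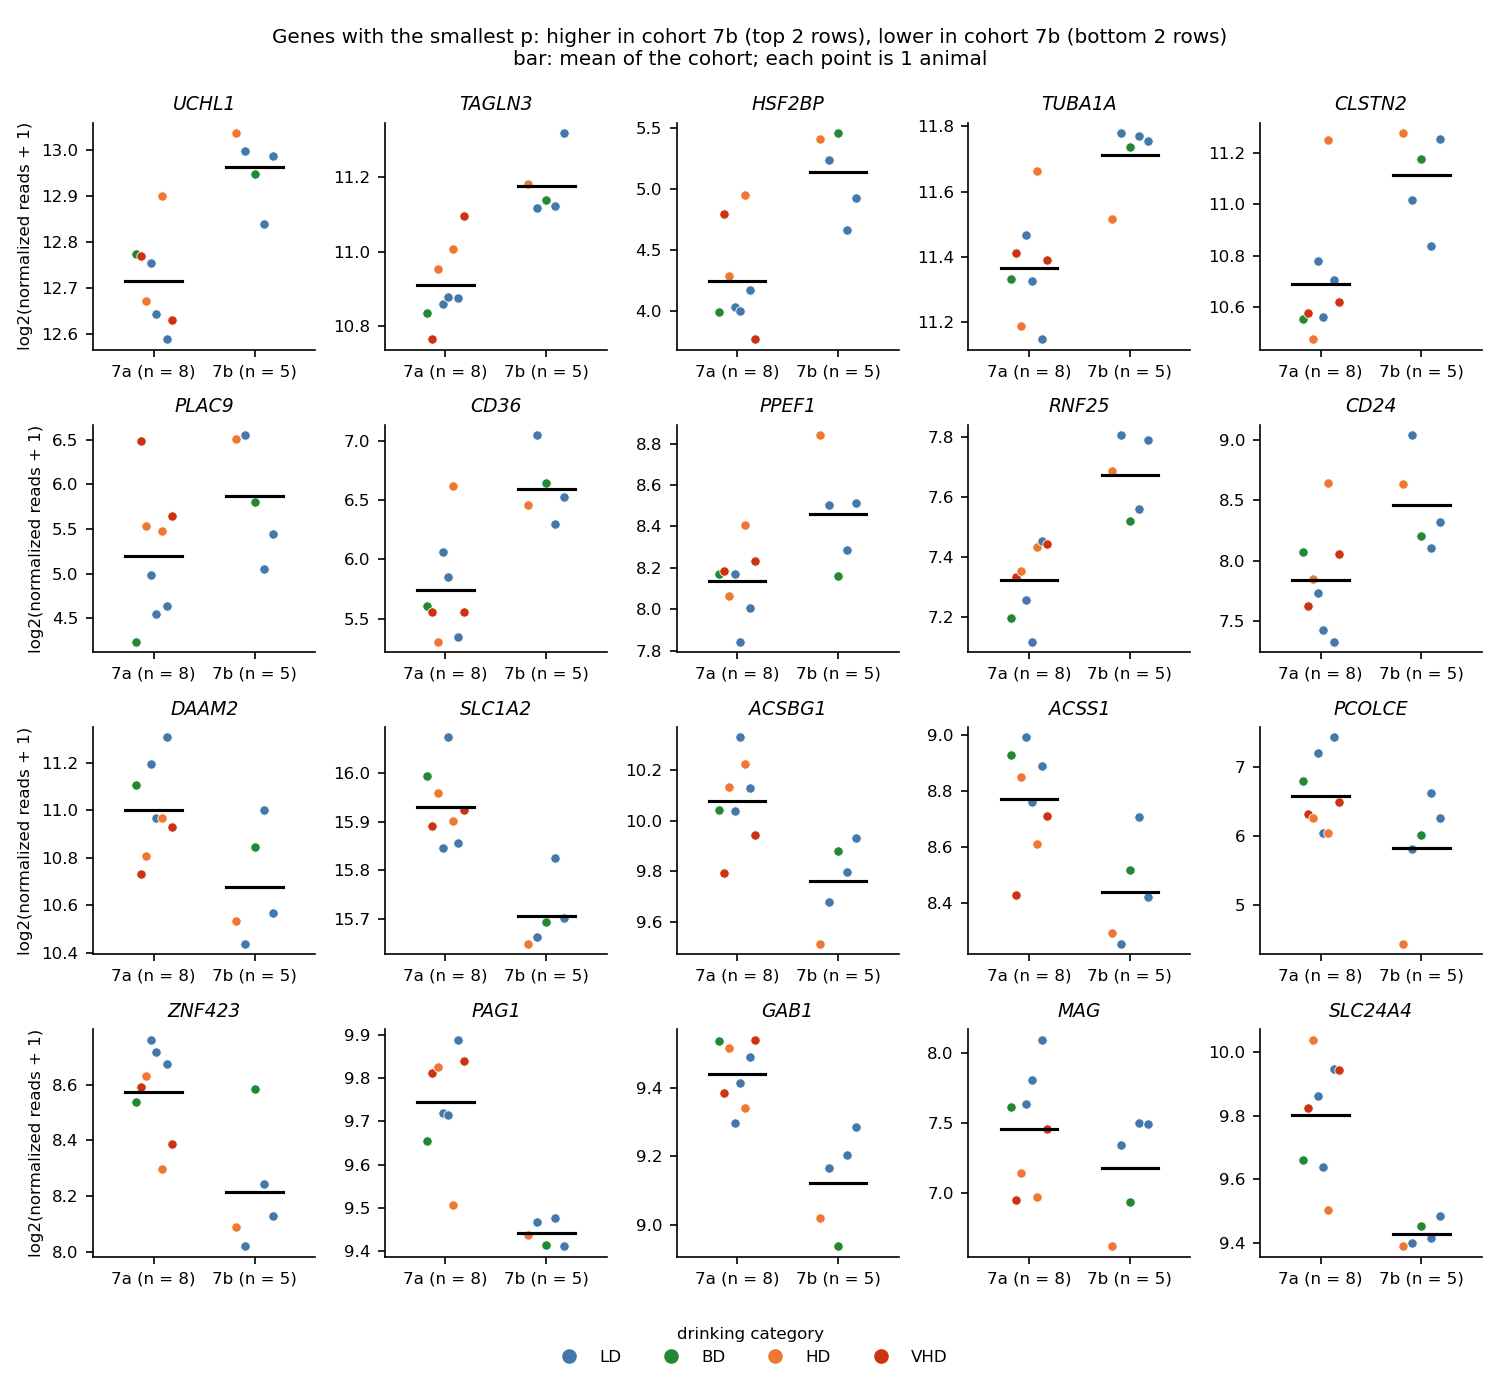
Levels of the 10 genes with the smallest p in each direction, as log2(normalized reads + 1), in the 8 animals of cohort 7a and the 5 of cohort 7b; each point is 1 animal, coloured by drinking category, and the bar is the cohort mean. The cohorts do not overlap for TAGLN3, RNF25, SLC1A2, PAG1, GAB1 and SLC24A4, and in PLAC9 and MAG the points of both cohorts lie largely side by side.

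CLSTN2, which encodes the synaptic adhesion protein calsyntenin 2, stood at 2483, 2070.5, 2316, 1830.5 and 2443 in cohort 7b against 1422, 1549 and 2434 in cohort 7a, a difference of 0.46 ± 0.12. All animals of cohort 7b lay above the median of cohort 7a, but a single HD animal of cohort 7a, replicate 6, lay apart from its cohort and above 3 of the 5. CD24, a glycoprotein gene of immature neurons, stood at 397, 525, 294, 274 and 319 against 159.7, 221 and 399, a difference of 0.72 ± 0.19 with much overlap. CD36, a fatty acid receptor of endothelial cells and macrophages, stood at 87.1, 131, 98.8, 77.9 and 91.4 against 38.5, 46.8 and 97.5, a difference of 0.85 ± 0.22, and 2 of the 5 animals lay above all of cohort 7a.

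RNF25, which encodes a ubiquitin ligase, stood at 205, 223, 183, 188 and 220.4 in cohort 7b and at 138, 161 and 174 in cohort 7a, without overlap and with a difference of 0.38 ± 0.10. PPEF1, a calcium-responsive phosphatase gene, differed by 0.40 ± 0.11, with 286 to 458 normalized reads in cohort 7b and 229 to 339 in cohort 7a. HSF2BP, named for its binding to heat shock factor 2, and PLAC9 had few reads and the widest differences of the 10, 2.01-fold and 2.001-fold, with an SE of 0.24 and 0.26 on the log2 scale. HSF2BP stood at 41.3, 36.7, 42.9, 24.2 and 29.3 against 12.6, 16.1 and 29.9, so that 3 of 5 animals lay above all of cohort 7a. PLAC9 stood at 90.0, 92.7, 54.9, 32.0 and 42.6 against 17.8, 37.1 and 88.6, and its difference was 1.11 within the libraries numbered 1 to 8 and 0.37 within the others.

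The 10 genes with the smallest p that were lower in cohort 7b were DAAM2, SLC1A2, ACSBG1, ACSS1, PCOLCE, ZNF423, PAG1, GAB1, MAG and SLC24A4, in the order of their p. SLC1A2 (chromosome 11, 30302913 to 30474993) encodes the main glutamate transporter of astrocytes and is among the most abundant transcripts of the tissue. It stood at 51397, 51918, 53005, 58099 and 53333 normalized reads in cohort 7b against a lowest, median and highest of 58912, 61673 and 68960.0 in cohort 7a. Every animal of cohort 7b lay below every animal of cohort 7a, the difference was −0.23 ± 0.06, or 1.18-fold higher in cohort 7a (limma, unadjusted p = 0.000714, adjusted p = 0.690), and 11 of 11 exons had its sign. ACSBG1 (chromosome 14, 55439015 to 55504470), an acyl-CoA synthetase gene of astrocytes, stood at 729, 819, 942, 889.7 and 977 against 886, 1086 and 1287. All 5 lay below the median of cohort 7a and 2 below its lowest value, with a difference of −0.37 ± 0.09 and the same sign in 14 of 14 exons. DAAM2 (chromosome 6, 40633798 to 40745751), a formin gene of the Wnt pathway expressed in glia, stood at 1481, 1386, 1838, 2045 and 1514 against 1698, 1999 and 2531, a difference of −0.40 ± 0.09, with 3 animals below all of cohort 7a and replicate 4 above its median. ACSS1, the mitochondrial enzyme that turns acetate, a product of ethanol breakdown, into acetyl-CoA, stood at 313, 305, 365, 417 and 343 against 344, 447 and 508. All 5 lay below the median of cohort 7a, 3 of them below its lowest animal, with a difference of −0.40 ± 0.10.

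MAG, which encodes a glycoprotein of the innermost myelin layer, stood at 97.4, 162, 122, 180.0 and 179 in cohort 7b against 123, 185 and 273 in cohort 7a, with all 5 animals below the median of cohort 7a and a difference of −0.48 ± 0.12. The plain difference of means was smaller, −0.25 within the libraries numbered 1 to 8 and −0.28 within the others. All 4 HD and VHD animals of cohort 7a lay below all 3 of its LD animals for this gene. SLC24A4, a sodium, potassium and calcium exchanger gene, stood at 670.2, 675, 701, 683 and 716 in cohort 7b against 724, 917 and 1050.0. PAG1, an adaptor protein gene that restrains Src kinases, stood at 692, 707, 681, 711 and 680.2 against 727, 869 and 947. In both genes the 5 animals of cohort 7b lay within a narrow band below all 8 of cohort 7a, which were spread more widely, and the differences were −0.36 ± 0.09 and −0.30 ± 0.08. GAB1, a docking protein gene of growth factor receptors, did not overlap either, at 518, 573, 489, 589 and 624 against 628, 699.8 and 744, a difference of −0.33 ± 0.08. It was −0.18 among the LD animals and −0.16 without the libraries numbered 1 to 8.

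ZNF423, a zinc finger transcription factor gene, stood at 259 to 383 in cohort 7b and 314 to 433 in cohort 7a, a difference of −0.42 ± 0.10, with the BD animal of cohort 7b among the values of cohort 7a and the other 4 below them. PCOLCE, an enhancer of collagen processing, stood at 20.7, 55.0, 63.9, 97.8 and 76.0 against 65.0, 83.9 and 171, a difference of −1.02 ± 0.25. The difference was −1.34 within the libraries numbered 1 to 8, against −0.34 among the others, and replicate 1 of cohort 7b was the lowest library of the 13. All 20 of these genes kept their sign within the libraries numbered 1 to 8, within the others, among the LD animals alone (3 against 3) and in each of the 30 alternative fits, but 9 of 10 in each direction were smaller outside numbers 1 to 8. The median of the 10 higher genes was 0.57 within those numbers and 0.33 among the others, and that of the 10 lower genes −0.40 and −0.27. These genes were chosen for their small p, and the shared signs are a description. Drinking categories are not balanced between the cohorts within either set of library numbers.

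Gene lists of cell types and pathways are described by the number of members on each side of 0 and by their median, beside the 52.3% of all genes above 0, the 47.7% below 0 and the all-gene median of 0.0082. The astrocyte list lay wholly on one side. All 15 tested members of 15 were lower in cohort 7b, with a median of −0.20, and 6 of 15 had an unadjusted p under 0.05 where 2.75% of all genes did. Among these, beside SLC1A2 and ACSBG1, were SOX9, a transcription factor of astrocyte identity, at −0.30 ± 0.11, GFAP, the intermediate filament of astrocytes, at −0.26 ± 0.12, and GLUL, the enzyme that turns glutamate into glutamine, at −0.23 ± 0.08. GFAP stood at 9514, 11304, 11875, 16275 and 12238 in cohort 7b against 9560.4, 12589 and 22293 in cohort 7a, so that its cohorts overlapped over most of their range. The water channel gene AQP4, at −0.12 ± 0.09, the gap junction gene GJA1, at −0.16 ± 0.09, and ALDOC, at −0.03 ± 0.08, were below 0 without reaching an unadjusted p of 0.05. As summed levels the 15 genes held 115050 to 137480 normalized reads in cohort 7b and 129710 to 152520 in cohort 7a, and none of them was at 0. The list median was below 0 in all alternatives, but was −0.12 in the LD animals, with 14 of 15 below 0. It was −0.064 without the libraries numbered 1 to 8, where only LD animals bear on the fitted difference.

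**Figure D2:**
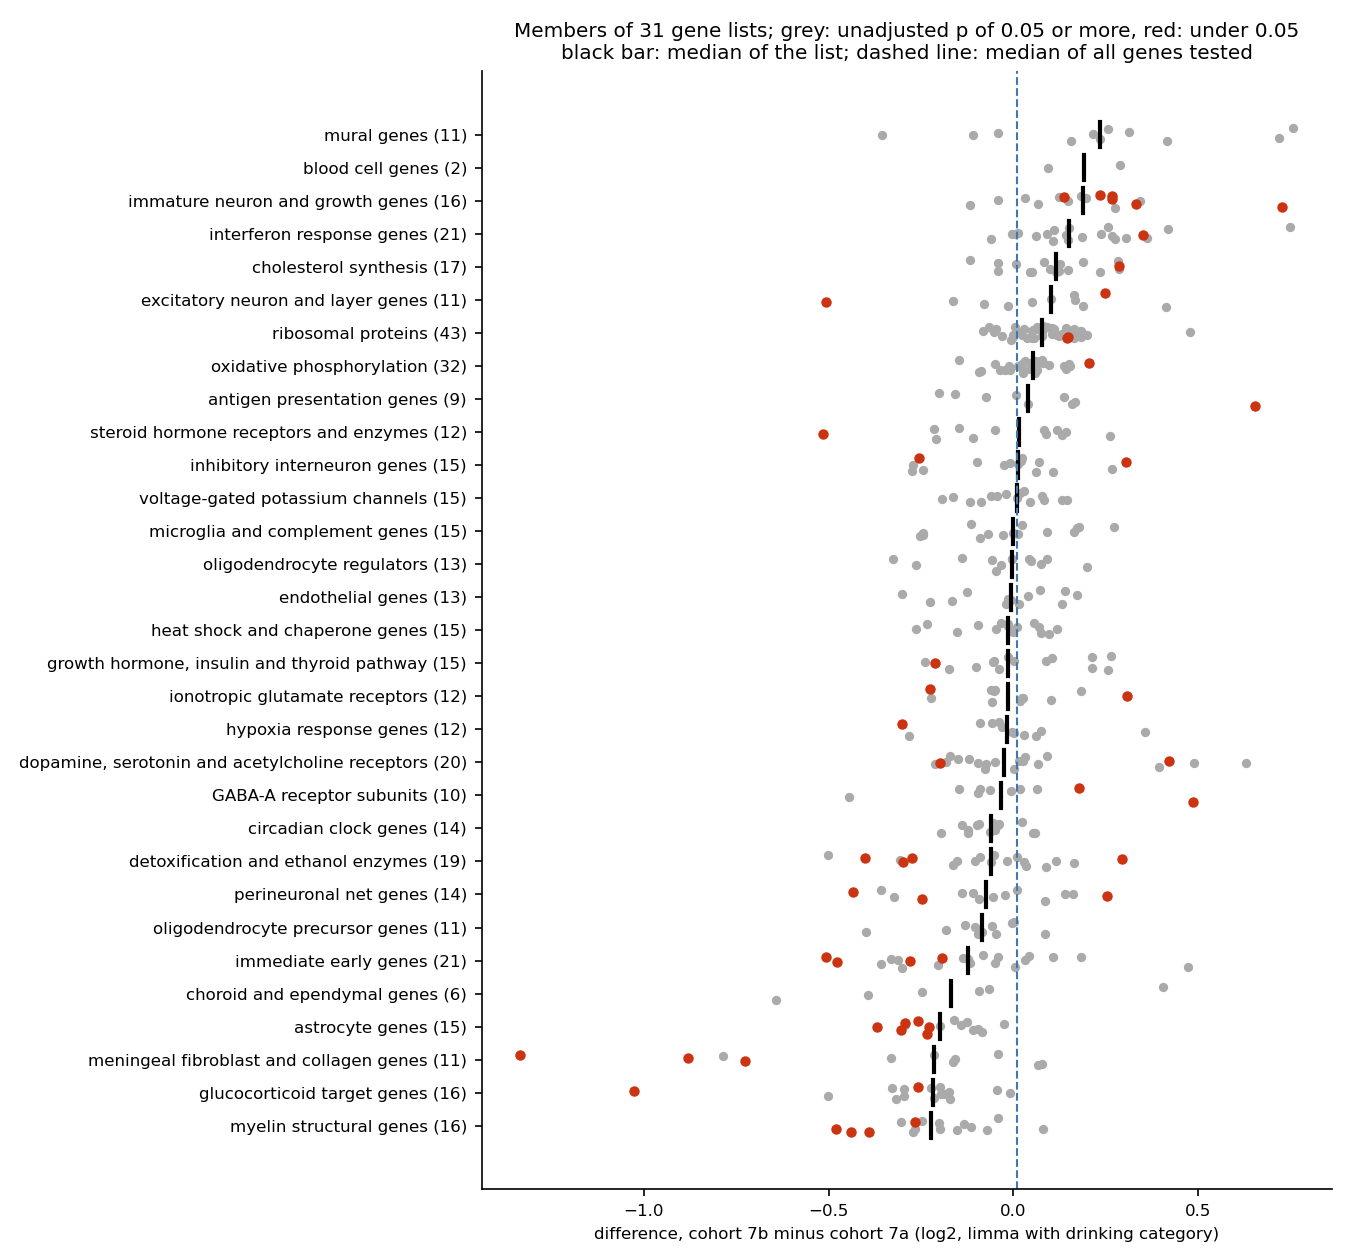
Differences of the members of 31 gene lists between cohort 7b and cohort 7a (log2, x axis), 1 point per gene, with the median of each list as a black bar and that of all genes tested, 0.0082, as a dashed line; red points have an unadjusted p under 0.05 and no point passed the adjusted test. The astrocyte and glucocorticoid target lists lie wholly to the left, and the growth and interferon lists mostly to the right.

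Myelin genes lay lower in cohort 7b in the fit to all 13 libraries. Of 16 myelin structural genes 15 were below 0, with a median of −0.22, and 4 had an unadjusted p under 0.05, among them MAG, ASPA (−0.44 ± 0.19), which encodes the acetylaspartate hydrolase of oligodendrocytes, and the adhesion gene CNTN2 (−0.27 ± 0.10). MBP, which encodes myelin basic protein, differed by only −0.12 ± 0.10 and stood at 527 to 557 in cohort 7b, inside the range of 458 to 753 in cohort 7a. The list median was −0.27 within the libraries numbered 1 to 8 and −0.028 within the others, −0.072 among the LD animals with 10 of 16 below 0, −0.14 without the category term, and −0.084 without replicate 1 of cohort 7a or replicate 3 of cohort 7b. The summed level was 6262 to 8426 normalized reads in cohort 7b and 6486 to 10525 in cohort 7a. The transcription factors and other regulators of the oligodendrocyte lineage lay near 0 (13 tested, 8 below, median −0.0047), with MYRF, the master regulator of myelin genes, at −0.26 ± 0.14 and ST18 at −0.32 ± 0.16. Oligodendrocyte precursor genes had 9 of 11 members below 0 and a median of −0.08, with GPR17 at −0.18 ± 0.12 and NEU4 at −0.40 ± 0.30 (0.00817 without the libraries numbered 1 to 8), and 0 of them reached an unadjusted p of 0.05. The precursor list median was −0.17 without replicate 1 of cohort 7b, −0.030 without replicate 1 of cohort 7a or replicate 3 of cohort 7b, and −0.0075 without the libraries numbered 1 to 8. Cholesterol synthesis genes, whose product is a main lipid of myelin, had 14 of 17 above 0 and a median of 0.11, which was 0.025 without the libraries numbered 1 to 8 and 0.030 without replicate 7 of cohort 7a. Among them FDPS stood at 0.28 ± 0.13 and MSMO1 at 0.28 ± 0.15.

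Genes of immature neurons and axon growth were the group on the higher side with the most members past the unadjusted threshold. Of 16 members 14 were above 0 with a median of 0.19, and 6 of 16 had an unadjusted p under 0.05 where 2.84% of all genes did. GAP43, a protein of axonal growth cones, stood at 2152, 2023, 2003, 1809.8 and 1985 in cohort 7b against 1419, 1709 and 1873 in cohort 7a, with 4 of 5 animals above all of cohort 7a and a difference of 0.27 ± 0.08. DPYSL3, which acts in growth cone guidance, differed by 0.33 ± 0.12, STMN2, a regulator of microtubules in axons, by 0.23 ± 0.09, FABP7, a fatty acid carrier of radial glia, by 0.27 ± 0.10, and the adhesion gene NCAM1 by 0.14 ± 0.06, and CD24 was the sixth. SOX4 and SOX11, transcription factors of new neurons, stood at −0.04 ± 0.19 and 0.03 ± 0.13. DCX, the classical marker of migrating young neurons, had the opposite sign, −0.12 ± 0.09, and stood at 781, 734, 712, 638 and 695 in cohort 7b, all below the cohort 7a median of 796. The list median ranged from 0.14 to 0.21 over the alternatives other than leaving out single libraries, was 0.20 among the LD animals, and was 0.19 within the libraries numbered 1 to 8 and 0.14 within the others.

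**Figure D3:**
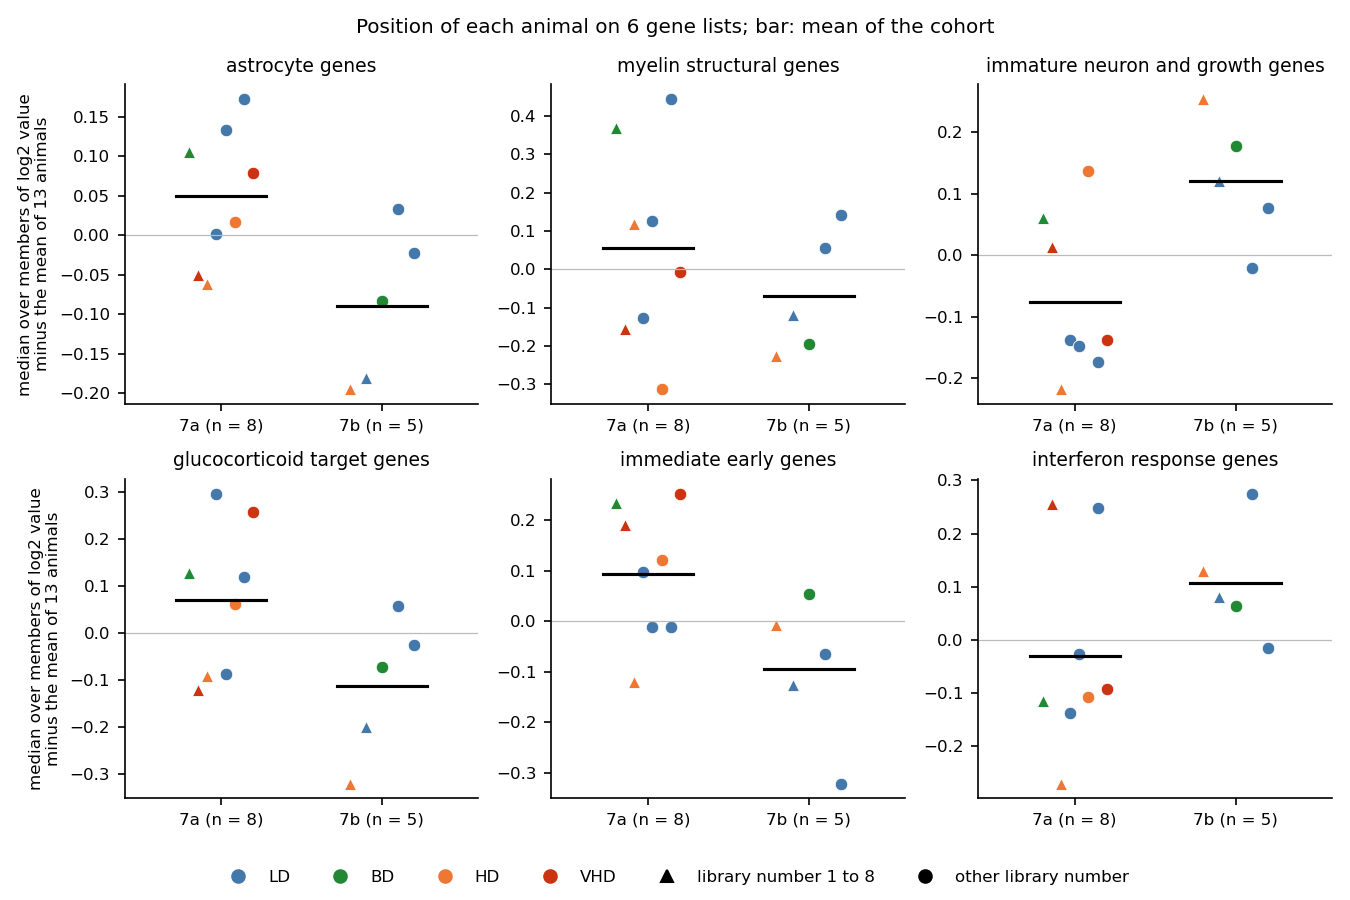
Position of each animal on 6 gene lists, as the median over the members of log2(normalized reads + 1) after subtracting the mean of each gene over the 13 animals; triangles are libraries numbered 1 to 8 and circles the others, colours give the drinking category and bars the cohort means. On the astrocyte list cohort 7b ran from −0.20 to 0.03 and cohort 7a from −0.06 to 0.17, and the cohorts overlap on all 6 lists.

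All 16 glucocorticoid target genes were below 0 with a median of −0.22, and 2 of them had an unadjusted p under 0.05. ANGPTL4, an inhibitor of lipoprotein lipase, stood at 13.3, 19.4, 24.96, 23.4 and 14.7 in cohort 7b and at 7.48, 43.5 and 68.3 in cohort 7a, inside that wide range, with a difference of −1.03 ± 0.40 that was 0.15 within the libraries numbered 1 to 8 and −1.34 within the others. ZBTB16 differed by −0.26 ± 0.11 and FKBP5, the feedback regulator of the glucocorticoid receptor, by −0.20 ± 0.24, the receptor gene NR3C1 itself standing at −0.05 ± 0.08. The median of the plain differences was −0.20 within the libraries numbered 1 to 8 and −0.17 within the others, the fitted median was −0.037 without the libraries numbered 1 to 8, and 13 of 16 members were below 0 among the LD animals. As positions per animal, cohort 7b ran from −0.32 to 0.06 on this list and cohort 7a from −0.12 to 0.30, with the HD animal of cohort 7b the lowest. Immediate early genes, which neurons switch on within minutes of activity, had 15 of 21 members below 0, a median of −0.12 and 4 members with an unadjusted p under 0.05. FOS stood at 239, 218, 410.4, 327 and 284 in cohort 7b against 226, 389 and 526.5 in cohort 7a, a difference of −0.48 ± 0.17, and FOSB at 81.2, 81.5, 151, 91.7 and 77.4 against 72.0, 130.3 and 213, a difference of −0.51 ± 0.19. In both genes the BD animal, replicate 3, was the highest of cohort 7b and lay among cohort 7a. SIK1 and the synaptic scaffold gene HOMER1 followed at −0.28 ± 0.11 and −0.19 ± 0.08, while NPAS4 stood at 0.47 ± 0.27 and BDNF, a growth factor of neurons, at 0.0047 ± 0.14. The list median was −0.20 without replicate 7 of cohort 7a and −0.066 without replicate 5 of cohort 7b, the lowest animal on this list. Circadian clock genes had 11 of 14 members below 0 with a median of −0.06, PER1 at −0.20 ± 0.10 and PER2 at −0.14 ± 0.08. Necropsy was timed to the usual start of drinking in every animal, per the labels. Heat shock genes had a median of −0.01 and hypoxia response genes of −0.02, both near that of all genes, with CRYAB at −0.26 ± 0.16 and DNAJA1 at 0.12 ± 0.07 in the first and EGLN3 at −0.30 ± 0.12 and ANKRD37 at 0.35 ± 0.17 in the second.

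Interferon response genes, which cells induce against viruses, lay mostly higher in cohort 7b. Of 21 members 19 were above 0 with a median of 0.15, although only MX1 had an unadjusted p under 0.05. MX1, an antiviral GTPase gene, stood at 495, 399, 460.3, 428 and 287 in cohort 7b against 236, 321 and 426 in cohort 7a, with 3 animals above all of cohort 7a and a difference of 0.35 ± 0.14. ISG15 had the largest estimate of the list, 0.75 ± 0.43, and STAT2, which carries the interferon signal to the nucleus, stood at 0.14 ± 0.08. The positions per animal ran from −0.02 to 0.28 in cohort 7b and from −0.27 to 0.25 in cohort 7a, where 1 VHD and 1 LD animal lay as high as cohort 7b. Without that LD animal, replicate 7, the list median was 0.27. Only 9 of the 23 listed antigen presentation genes were in the table, with a median of 0.04 that was −0.080 without replicate 4 of cohort 7b and 0.23 without the libraries numbered 1 to 8. MAMU-DRA, a class II gene of antigen-presenting cells, stood at 72.3, 129, 149, 145 and 148 against 51.9, 69.6 and 146, a difference of 0.65 ± 0.24, but genes of this family share reads and their split is uncertain. TAP1, which loads peptides for class I molecules, stood at −0.20 ± 0.14, and at 0.068 without the libraries numbered 1 to 8. Microglia and complement genes were balanced, 7 above and 8 below 0 with a median of −0.00064, CD14 at 0.27 ± 0.22, C1QA at 0.18 ± 0.23 and C3 at −0.12 ± 0.11. C3 stood at 0.056 without replicate 1 of cohort 7b.

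Genes of vessels and meninges varied widely within each cohort. Mural genes, of pericytes and smooth muscle, had 8 of 11 members above 0 and a median of 0.23, and 0 of them reached an unadjusted p of 0.05. DES, the intermediate filament of smooth muscle, stood at 28.05, 220.0, 88.9, 32.9 and 34.9 in cohort 7b, high in replicates 2 and 3 and within the cohort 7a range of 21.7 to 39.6 in the other 3. NOTCH3, a receptor of mural cells, differed by 0.22 ± 0.14, −0.12 within the libraries numbered 1 to 8 and 0.56 within the others. The mural median was 0.078 without replicate 2 of cohort 7b, and the summed level was 2148 to 5806 in cohort 7b and 1912 to 3294 in cohort 7a. Meningeal fibroblast and collagen genes had 9 of 11 members below 0, a median of −0.22 and 3 members with an unadjusted p under 0.05. COL1A1, the main chain of fibrillar collagen, stood at 32.5, 219, 738, 273 and 253 in cohort 7b against 173, 447 and 640.2 in cohort 7a, a difference of −1.33 ± 0.41, −2.05 within the libraries numbered 1 to 8 and −0.12 within the others. IGF2, a growth factor made in the meninges, differed by −0.88 ± 0.30, −1.59 within the libraries numbered 1 to 8 and −0.02 within the others, and the transporter gene SLC6A13 by −0.73 ± 0.31. Replicate 1 of cohort 7b was the lowest library for COL1A1 and IGF2, and without it the list median was 0.083. Without all libraries numbered 1 to 8 the median was 0.32. The summed level ran from 1599 to 6978 in cohort 7b and from 2701 to 7516 in cohort 7a, 11 of the 12 listed genes were in the table and none was at 0 in all libraries. PCOLCE, which belongs to collagen processing, was low in the same library, and the part of meningeal tissue in its difference was not tested. Endothelial genes were balanced at a median of −0.0073 (13 tested, 7 below 0), with ABCB1, a drug exporter of the blood-brain barrier, at 0.17 ± 0.14 and CD93 at −0.30 ± 0.20, the latter at 0.00812 without the libraries numbered 1 to 8. The 6 tested genes of choroid plexus and ependyma had a median of −0.17, where CLIC6 stood at −0.64 ± 0.32 but −1.67 within the libraries numbered 1 to 8 and 0.25 within the others, and RSPH1 at 0.40 ± 0.22. The list median was 0.062 among the LD animals, with 4 of 6 above 0. It was 0.018 without replicate 1 of cohort 7b and −0.40 without replicate 1 of cohort 7a or replicate 3 of cohort 7b. Of blood cell genes LYZ stood at 0.29 ± 0.26 and CD8A at 0.09 ± 0.24, the latter at −0.11 among the LD animals.

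Genes of excitatory neurons had a median of 0.10 (7 of 11 above 0). NEUROD6, a transcription factor of cortical projection neurons, stood at 0.25 ± 0.12, and SLC17A6, a vesicular glutamate transporter gene, at −0.51 ± 0.20. Genes of inhibitory interneurons had a median of 0.01 (8 of 15 above 0). The peptide gene CCK stood at 1454, 1429.9, 1265, 1408 and 1298 in cohort 7b against 905, 1139.5 and 1351 in cohort 7a, with 3 animals above all of cohort 7a and a difference of 0.31 ± 0.09. RELN differed by −0.25 ± 0.12, −0.48 within the libraries numbered 1 to 8 and 0.02 within the others. PVALB, SST and NPY, which mark interneuron classes, stood at −0.27 ± 0.26, 0.11 ± 0.14 and 0.27 ± 0.18. NPY differed by 0.72 among the LD animals and by −0.22 among the other drinkers (limma interaction, adjusted p = 0.494). GAD1, the main enzyme of GABA synthesis, stood at −0.01 ± 0.07. Perineuronal net genes, whose products enwrap mature interneurons, had 9 of 14 members below 0 and a median of −0.07. The protease gene ADAMTS9 stood at 109, 95.7, 115, 116 and 109.5 against 94.9, 151 and 175, below the median of cohort 7a in all 5 animals, and differed by −0.43 ± 0.15, and BCAN, which encodes brevican, by −0.25 ± 0.10, whereas the matrix gene TNC was higher by 0.25 ± 0.12.

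Among receptors and channels the group medians lay near 0 and a few subunits did not. GABRA5, the GABA-A subunit of tonic inhibition, stood at 2273, 2225, 2014, 1592 and 1833 in cohort 7b against 1063, 1458 and 2150.2 in cohort 7a. All 5 lay above the median of cohort 7a and 2 above its highest animal, the difference was 0.49 ± 0.13, or 1.40-fold (limma, unadjusted p = 0.00224, adjusted p = 0.690), and 11 of 11 exons had its sign. GABRB1 followed at 0.18 ± 0.07, and the 10 tested subunits had a median of −0.03. Among the LD animals this list median was 0.087, with 9 of 10 above 0. GRIA1, an AMPA receptor subunit gene, stood at 5361, 5154, 4492, 4076 and 5082 against 3547, 4020.2 and 4529, with all 5 above the median of cohort 7a, 3 of them above its highest animal, and a difference of 0.31 ± 0.08. The kainate receptor gene GRIK1 had the opposite sign, −0.23 ± 0.08, with all 5 animals at 615 to 653 and cohort 7a at 608 to 828. The NMDA receptor genes GRIN2A and GRIN2B stood at −0.06 ± 0.07 and 0.02 ± 0.06, and the 12 glutamate receptor genes had a median of −0.02. Of the acetylcholine receptors, CHRM2 stood at 97.4, 90.6, 72.9, 73.6 and 80.2 against 53.5, 63.2 and 75.8, a difference of 0.42 ± 0.13, and CHRM3 at −0.20 ± 0.08, in a list of 20 with a median of −0.02 and 10 members on each side of 0. Voltage-gated potassium channels had a median of 0.0082 with 0 of 15 at an unadjusted p under 0.05, KCNH1 at −0.19 ± 0.09 and KCND2 at −0.16 ± 0.08.

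The steroid receptor and enzyme list had a median of 0.02 (6 of 12 above 0), with the coactivator gene NCOA1 at 0.09 ± 0.06. IGF1, the growth factor downstream of growth hormone, stood at 261, 299, 297, 322 and 262 against 294, 324 and 410.5, all 5 animals below the median of cohort 7a, and differed by −0.21 ± 0.10, −0.41 within the libraries numbered 1 to 8 and −0.07 within the others. Its list of 15 growth hormone, insulin and thyroid genes had a median of −0.02, and KLF9, a target of thyroid and glucocorticoid hormones, stood at −0.17 ± 0.08. Metabolic groups had small medians. Of 43 ribosomal protein genes 35 were above 0 with a median of 0.08 and 2 at an unadjusted p under 0.05, RPS3 at 0.15 ± 0.06 and RPL4 at 0.14 ± 0.06. Ribosomal protein genes have many processed copies, which makes their read counts uncertain. Of 32 oxidative phosphorylation genes 24 were above 0 with a median of 0.05, ATP5O at 0.20 ± 0.08 and COX6A1 at 0.14 ± 0.08. Detoxification and ethanol enzymes had 12 of 19 members below 0 and a median of −0.06, which was −0.0038 without replicate 1 of cohort 7b and −0.11 without its replicate 4. Of these, ACSS1 and ALDH1A1, an aldehyde dehydrogenase at −0.27 ± 0.09, were lower, and the glutathione transferase genes GSTM2 and GSTM3, close paralogs whose reads may be split, stood at −0.30 ± 0.13 and 0.29 ± 0.12.

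Of the 22 genes wholly higher and the 9 wholly lower in cohort 7b, 6 are among the 20 genes with the smallest p, and all but NCAPD3 had an unadjusted p under 0.05. The following ones were chosen after their values were seen. Among those wholly lower in cohort 7b were EML6, a microtubule-binding protein gene, at −0.29 ± 0.08, TPD52L1 at −0.37 ± 0.10, the transcription factor gene TRPS1 at −0.22 ± 0.06, the RNA-binding protein gene RBMS1 at −0.30 ± 0.11 and IRF2BP2 at −0.16 ± 0.07. Among those wholly higher were NENF, which encodes a secreted neurotrophic factor, at 0.39 ± 0.11, the myosin light chain gene MYL6 at 0.24 ± 0.07, the dynactin subunit gene DCTN3 at 0.23 ± 0.06, the secretory granule chaperone gene SCG5 at 0.23 ± 0.06 and the tubulin folding cofactor gene TBCB at 0.19 ± 0.07. No one of them passed limma's adjusted test.

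The cohort difference was compared between LD animals (3 of each cohort) and the other drinkers (2 of cohort 7b and 5 of cohort 7a) by an interaction term. Limma called 0 of 12733 genes (0%), with 1136 (8.92%) at an unadjusted p under 0.05 and a smallest adjusted p of 0.0708, and edgeR called 0, with 1094 unadjusted. NSUN6, which encodes an RNA methyltransferase, had 229, 239.7 and 229.5 normalized reads in the LD animals of cohort 7b and 159, 166 and 171 in those of cohort 7a. Among the other drinkers the order was the opposite, 137 and 144 in cohort 7b and 244, 203, 238, 203 and 235 in cohort 7a. Neither pair of groups overlapped, but NSUN6 was chosen for its small p. The share of all genes with this pattern is not given here. The cohort difference was 0.49 in LD and −0.67 in the others, and the interaction was −1.16 ± 0.18. With 2 animals in the smallest group, this pattern rests on the HD and the BD animal of cohort 7b.

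LEPR, the leptin receptor gene, had 59.1, 71.8 and 57.9 in the LD animals of cohort 7b and 44.7, 29.9 and 22.7 in those of cohort 7a, against 26.6 and 21.0 in the other drinkers of cohort 7b and 68.4, 44.9, 51.9, 42.8 and 42.6 in those of cohort 7a, an interaction of −2.01 ± 0.39. PLEK, pleckstrin, a substrate of protein kinase C in blood and immune cells, had 219, 168 and 97.0 in LD animals of cohort 7b and 48.3, 49.1 and 56.6 in those of cohort 7a. In the other drinkers it had 38.4 and 80.9 in cohort 7b and 96.7, 104, 102, 65.9 and 67.1 in cohort 7a, so that these 2 groups overlapped, and the interaction was −2.16 ± 0.43. CEP250 and ATN1 had the reverse pattern, lower in cohort 7b among LD animals and higher among the others. CEP250, a centrosome protein gene, had an interaction of 0.67 ± 0.14, and ATN1, the atrophin gene, of 0.97 ± 0.21. None of these interactions passed (limma adjusted p from 0.0708 to 0.494), and when each library was left out in turn or the alternatives were run, these 5 kept their signs, with adjusted p from 0.0650 to 0.847.

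**Figure D4:**
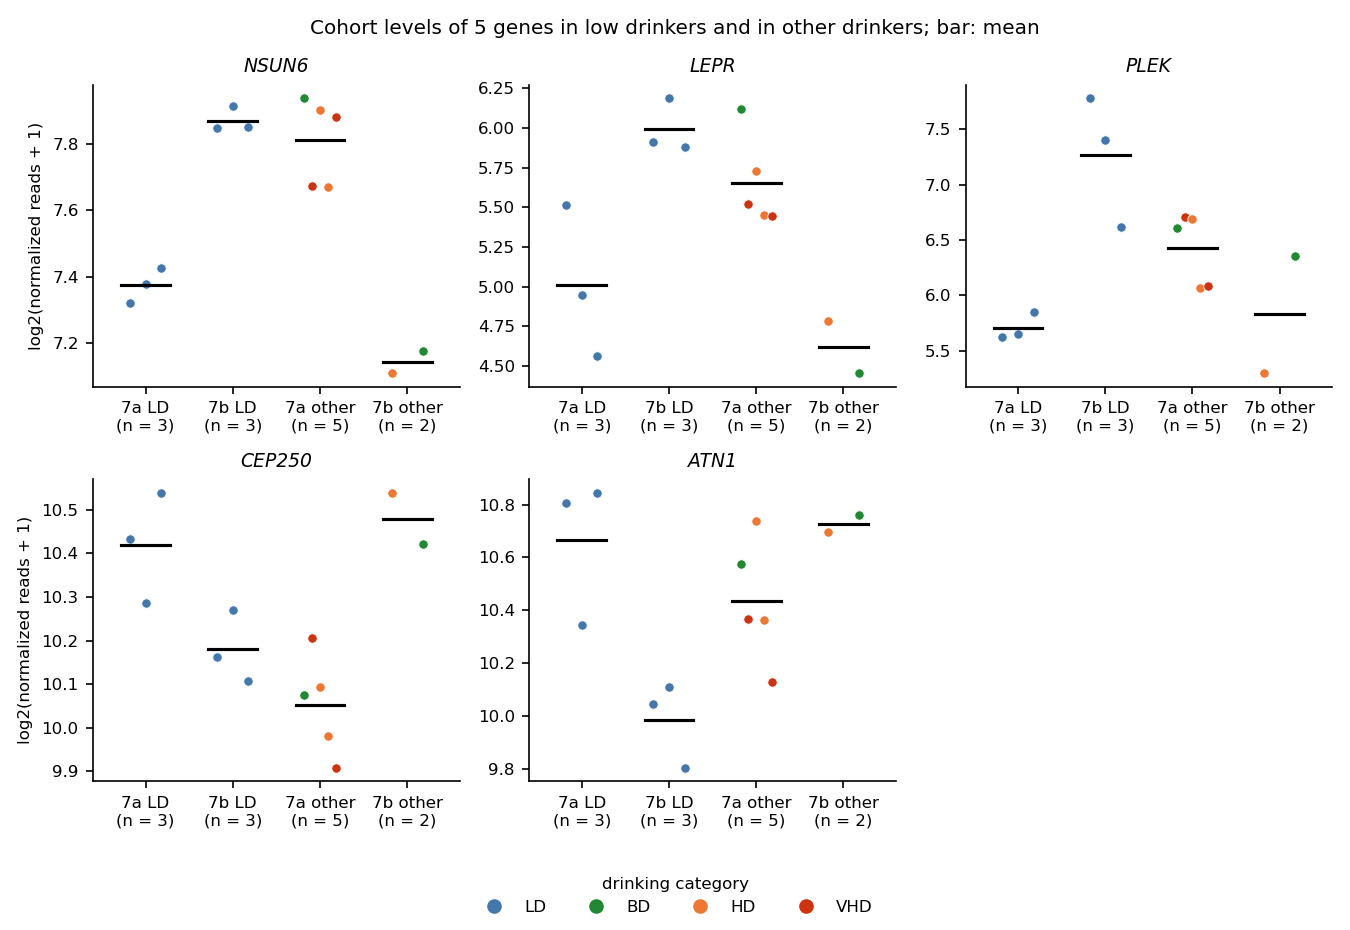
Levels of 5 genes, as log2(normalized reads + 1), in LD animals and in all other drinkers of cohorts 7a and 7b; points are animals coloured by category, bars are means, and the smallest group holds 2 animals. For NSUN6 the LD animals of cohort 7b lie above those of cohort 7a, and the other drinkers lie in the reverse order. This gene was chosen for its small p.

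Exon usage, the level of an exon relative to the other exons of its gene, was tested in 113622 exons. Limma called 0 (0%), with 5479 (4.82%) at an unadjusted p under 0.05 and a smallest adjusted p of 0.832. The 5 exons with the smallest p had few reads. In DDX19B, an RNA helicase gene, the exon at chromosome 16, 54382446 to 54382548, held a lowest, median and highest value of 5.01, 6.91 and 11.4 normalized reads in cohort 7b and 1.16, 2.56 and 4.55 in cohort 7a, a relative difference of 1.16 ± 0.16. In RPA2, a gene of the single-strand DNA-binding complex, the exon at chromosome 1, 26610824 to 26610937, held 2.00, 4.29 and 5.64 against 7.46, 11.6 and 15.1, a relative difference of −1.20 ± 0.20. The cohorts did not overlap for either exon, but both were chosen for their small p. The share of all exons without overlap is not given here. Exons of VAX1, of the endothelial receptor gene TEK and of the zinc transporter gene SLC30A5 followed at 1.53 ± 0.25, −1.02 ± 0.16 and −0.72 ± 0.13. Exon positions are as the deposited exon names give them, on a genome build not given in the sources used here.

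The levels in cohorts 5 and 4, which share no library with the comparison, set these genes beside animals of other cohorts. Cohort 5 (n = 8) had a mean age of 7.15 years at the end, close to that of cohort 7b, and cohort 4 (n = 9) of 9.98 years. By intake, cohort 5 lacks LD animals and is mostly HD and VHD, while cohort 4 is mostly LD and BD. The cohort means below carry no category term, so age and intake cannot be told apart in them. UCHL1 stood at 12.72 ± 0.10, 12.96 ± 0.08, 12.93 ± 0.16 and 12.80 ± 0.11 on the log2 scale (mean ± SD) in cohorts 7a, 7b, 5 and 4, in that order, with cohort 5 close to cohort 7b and cohort 4 between. TUBA1A stood at 11.37 ± 0.16, 11.71 ± 0.11, 11.47 ± 0.21 and 11.58 ± 0.16, with cohort 5 nearer to cohort 7a. SLC1A2 stood at 15.93 ± 0.08, 15.71 ± 0.07, 15.79 ± 0.09 and 15.76 ± 0.10, where cohort 7a was above the other 3. MAG stood at 7.46 ± 0.41, 7.18 ± 0.39, 7.81 ± 0.72 and 8.34 ± 0.65, lowest in cohort 7b and highest in cohort 4. ACSBG1 stood at 10.08 ± 0.17, 9.76 ± 0.17, 10.04 ± 0.17 and 10.08 ± 0.09, where cohort 7b lay below the other 3 cohorts. The 20 genes were chosen for their gap between cohorts 7a and 7b. The mean of cohort 5 lay between those of 7a and 7b for 9 of the 10 higher and 8 of the 10 lower genes, and that of cohort 4 for 10 and 4.

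**Figure D5:**
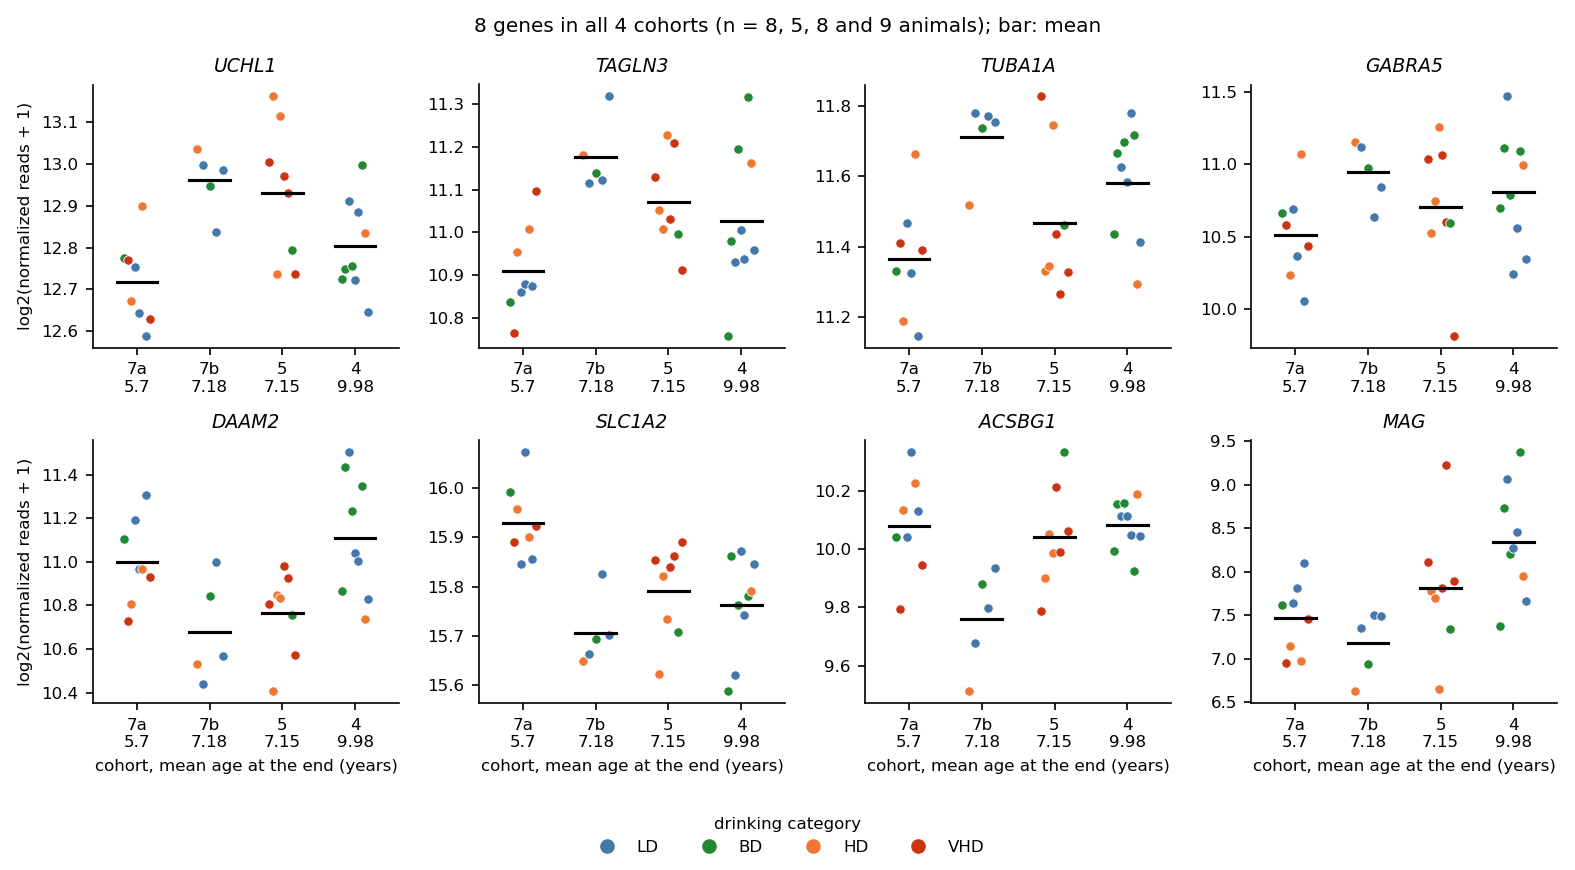
Levels of 8 genes, as log2(normalized reads + 1), in cohorts 7a, 7b, 5 and 4, each labelled with its mean age at the end of drinking in years; points are animals coloured by category and bars are means. Cohorts 7b and 5, of like age but unlike drinking categories, differ in their means for TUBA1A and ACSBG1 and lie close together for UCHL1.

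In its own test with category in the model, cohort 4 against cohort 5 gave 0 called genes by limma (0%), 385 (3.02%) at an unadjusted p under 0.05 and a smallest adjusted p of 0.142, and edgeR 0 and 481. With category in the model, the LD animals of cohort 4 have no counterpart in cohort 5 and do not bear on the cohort difference. It rests on the BD animals and on the pooled HD and VHD animals, which are spread very unevenly over these cohorts. Cohort 5 has a lone BD animal, and cohort 4 a lone HD animal and no VHD animal. Within each category the cohort difference thus has a lone animal on one side. Of the 10 genes higher in cohort 7b, 6 were also higher in cohort 4 than in cohort 5, and of the 10 lower genes 6 were lower. CD24 was higher in cohort 4 by 0.87 ± 0.32 and PPEF1 by 0.31 ± 0.13, while DAAM2 was higher there by 0.21 ± 0.17 and MAG by 0.55 ± 0.46, against their sign in cohort 7b. As lists, the myelin structural genes had a median of 0.48 in cohort 4 minus cohort 5 with 16 of 16 above 0, beside −0.22 in cohort 7b minus 7a. The astrocyte list had 0.013 beside −0.20, the immature neuron and growth list 0.036 beside 0.19, and the interferon list −0.11 beside 0.15. The median of all genes and their share above 0 in cohort 4 minus cohort 5 are not given here, so these counts and medians lack a background. Other lists also lay to one side there, with 39 of 43 ribosomal protein genes below 0 and 13 of 13 oligodendrocyte regulators above 0. Across all genes tested, which are not independent replicates, the differences of the 2 comparisons had a Pearson r of 0.067.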

How the data were processed

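Gene and exon values of 30 libraries, 1 per animal, were analysed. Replicates are numbered in accession order and come from separate animals. The deposited signal values are read counts per gene or exon that the authors scaled so that the upper quartile is nearly equal in every library, as the deposited tables show. CASAVA, FastQC, STAR 2.3.0e and edgeR are named in the submitters' processing notes without their roles. The genome build, annotation, counting program, use of strand and the treatment of reads shared by paralogs were not given in the sources used here. Antisense and overlapping genes may therefore share reads. The tables hold 15521 genes and 156345 exons. Each library's gene values were whole multiples of 1 step (100% of values within 0.01 of a whole read), and these recovered reads give the depths and the edgeR and DESeq2 tests. On them edgeR and DESeq2 each called 0 genes.

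Cohort 7b was compared with cohort 7a with limma 3.58.1 (R 4.3.3, empirical Bayes with a mean trend) on log2(value + 1), with drinking category as a covariate and Benjamini-Hochberg adjustment over 12733 genes at a threshold of 0.05. Cohort 4 was compared with cohort 5 in the same way on the same genes. Values within the libraries numbered 1 to 8 or the others are plain differences of means without the category term. Exon usage was tested within limma over exons with 5 or more normalized reads in 5 or more libraries, where a gene had 2 or more of them. The programs were checked on simulated data. EdgeR 4.0.16 and DESeq2 1.42.0 were alternatives, beside other pseudocounts, filters, scalings, covariates and subsets of animals and leaving out each library. The text names the 10 genes with the smallest p in each direction, the 2 with the smallest p in each of 31 lists, 21 genes whatever their value, up to 3 per direction of the interaction and the genes of 5 exons. Some genes under this rule are not reported here. Other list members and the genes without overlap were chosen after their values were seen. The members and the lists were chosen with earlier results of these data known. All sample columns of both tables belong to the series. Figures were drawn with matplotlib 3.10.9. No sequence is shown.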

Additional observations from a re-analysis of the deposited data

Results flagged for a closer look

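In 9 of 202 gene and cohort groups of 5 or 8 animals, 1 animal lay apart from the rest of its cohort by Dixon's test. Chance sets about 1 in 20 groups apart. The values are log2(normalized reads + 1). In cohort 7b, replicate 1, the HD animal, was the lowest for TUBA1A at 11.52 (next value 11.74), for the complement gene C3 at 10.09 (next 10.70) and for the class II gene MAMU-DRA at 6.196 (next 7.03). Replicate 3, the BD animal, was the highest of cohort 7b for FOSB at 7.25 (next 6.54), and replicate 4, an LD animal, was the highest for VAX1 at 5.68 (next 5.14). In cohort 7a, replicate 6 was the highest for CLSTN2 at 11.25 (next 10.78), replicate 7 for CD93 at 7.36 (next 6.50) and replicate 8 for the hormone target KLF9 at 10.01 (next 9.82). Replicate 3 of cohort 7a was the lowest for CD14, a receptor gene of myeloid cells, at 4.51 (next 5.26).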

How the results depend on the processing

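Limma, edgeR and DESeq2 called 0 genes between cohorts 7b and 7a in the main analysis and in each of the 30 alternatives, with a smallest adjusted p from 0.096 to 0.9996. The count at an unadjusted p under 0.05, 711 in all, ran from 516 (without replicate 7 of cohort 7a) to 1086 when single libraries were left out, and from 532 to 1058 otherwise. The 532 are 5.62% of the 9464 genes that reached 100 normalized reads in at least 5 libraries. Over 12733 genes the lowest count without leaving out single libraries was 565 (4.44%), with a principal component of the markers as covariate. The interaction and exon usage gave 0 calls under every alternative run. Cohort 4 against cohort 5 gave 16 calls without the category term. Without that term cohort and intake cannot be told apart in these animals, and the cause was not tested. Of 90 named genes 78 had the same sign in all 30 settings, the 20 with the smallest p among them, and none passed the adjusted test in any. The other 12 changed sign in at least 1 setting. They turned to 0.00817 for NEU4, 0.068 for C3, 0.00812 for CD93, 0.17 for CLIC6, −0.17 for CD8A, 0.098 for RELN, 0.068 for TAP1, 0.090 for GAD1, −0.040 for GRIN2B and 0.024 for NR3C1 without the libraries numbered 1 to 8, a setting chosen after seeing the data. Among LD animals alone they turned to 0.085 for C3, 0.069 for CLIC6, −0.11 for CD8A, 0.088 for GAD1, 0.034 for GRIN2A, −0.040 for GRIN2B and 0.030 for NR3C1. Array weights turned CD8A to −0.043 and GAD1 to 0.0054, and a principal component of the markers turned GAD1 to 0.0055. BDNF stood at −0.058 and GAD1 at 0.0080 without the category term, and at −0.0074 and 0.0018 with 4 categories or without the VHD animals. BDNF stood at −0.0046 with log2 total reads, −0.054 with library sets, −0.017 by edgeR and −0.012 by DESeq2. With single libraries left out the differences ran from −0.18 to 0.056 for C3, −0.053 to 0.25 for CD8A, −0.073 to 0.14 for BDNF, −0.042 to 0.030 for GAD1, −0.012 to 0.059 for GRIN2B and −0.11 to 0.023 for NR3C1. Without the libraries numbered 1 to 8 only LD animals bear on the fitted difference, so that setting is not separate from the fit to LD animals. The cause of these reversals was not tested. No paired analysis was possible because replicate numbers were given in accession order and pair no animals across cohorts. With 5 and 8 animals and a median SE of 0.12, small differences are not detectable. Replicates 1 of cohort 7a and 3 of cohort 7b are each the only BD animal of their cohort. The unadjusted count was 1086 without the first and 1083 without the second. Both settings in effect leave out the BD animals and give the same differences.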
